A study of Oryza sativa with 12 samples.

Results

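Sugar transporter genes of rice were followed in field-grown leaves with and without drought. The set holds every gene whose symbol or synonym in the species' gene table is MST, SUT or SWEET with a number. Of 20 such genes, 18 had a probe set on the array, among 17905 genes with one, and OsSWEET3a and OsSWEET13 had none. The 18 genes were 12 SWEET genes, 4 SUT genes and 2 MST genes, measured by 22 probe sets.

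SUT proteins carry sucrose into cells together with protons, and at the plasma membrane of phloem cells they load sucrose for transport out of the leaf. MST proteins carry glucose and other monosaccharides together with protons. SWEET proteins let sugars pass a membrane down their gradient in either direction, and their clades differ in preferring hexoses or sucrose and in lying at the plasma membrane or the vacuole. In a leaf, these carriers move sugar between the cytosol, the vacuole, the cell wall space and the phloem.

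The study compared 2 cultivars, Azucena, an upland tropical japonica rice, and Bala, an upland indica rice, each with 3 control and 3 drought arrays. Control plots stayed flooded throughout, while drought plots received no water from day 59 after sowing. Sampling was on day 83, by which time drought had lasted 24 days. The leaf taken was the last but one to have fully expanded, of which 4 cm were removed from each end and the rest frozen. Leaves of a field block went into 1 bag, drawn from 2 plots per block in drought and 1 plot per block in control. The labels call the replicates biological. Which block a replicate number stands for is not stated.

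RNA levels were read on Affymetrix rice arrays as linear signals. Array medians lay between 9.6 and 12.4. Background, taken as the brightest of the negative controls on an array, lay between 13.4 and 28.3. Leaf photosynthesis markers were bright in every group, with 5 of 6 above background, and their summed signals were lower in drought in both cultivars. These sums were 27046.6 to 32506.4 in Azucena control and 22540.6 to 24707.9 in Azucena drought. In Bala they were 30554.3 to 35639.4 in control and 24476.0 to 25819.4 in drought. Markers of dividing cells, 6 of 6, were at background in every group, and so were 4 or 5 of 5 anther markers. Changes below are log2 differences of signal + 16 with their standard error (SE), and adjusted p-values are from limma with Benjamini-Hochberg adjustment over 33476 probe sets, with a threshold of 0.05. Signals of different genes come from different probes and were not set against each other, though marker signals were summed within a list. Both drought responses enter the interaction, and each group enters more than 1 comparison, so these are not independent. The number of arrays, 3 per group, limits the precision.

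Under drought, leaves of both cultivars had more OsSWEET4, OsSWEET6a/b, OsSWEET15 and OsSWEET16 signal and less OsMST3, OsSWEET1a and OsSWEET5 signal. For OsSWEET5, both Azucena groups were at background in their mean. The cultivars parted in the sucrose symporters, since OsSUT1, OsSUT2 and OsSUT4 rose in Bala and none of the SUT genes passed the test in Azucena. OsSWEET2a rose in Azucena, and OsSWEET1b, OsSWEET2b, OsSWEET14 and OsSUT5 passed the test in neither cultivar. In numbers, 5 of 15 tested members rose in Azucena, against 18.2% of 15605 genes, and 3 fell, against 17.4%. In Bala 7 of 15 rose, against 27.4% of genes, and 3 fell, against 14.1%. The arrays of control and drought did not overlap for 10 of 15 members in either cultivar, against 51.4% of genes in Azucena and 51.7% in Bala. The members' median change was -0.04 in Azucena and 0.19 in Bala, beside 0.03 and 0.18 over all genes. OsSWEET15 passed the filter on low values mainly through its drought arrays, and OsSWEET5 mainly through its control arrays, so these counts are a description of the members tested.

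**Figure D1:**
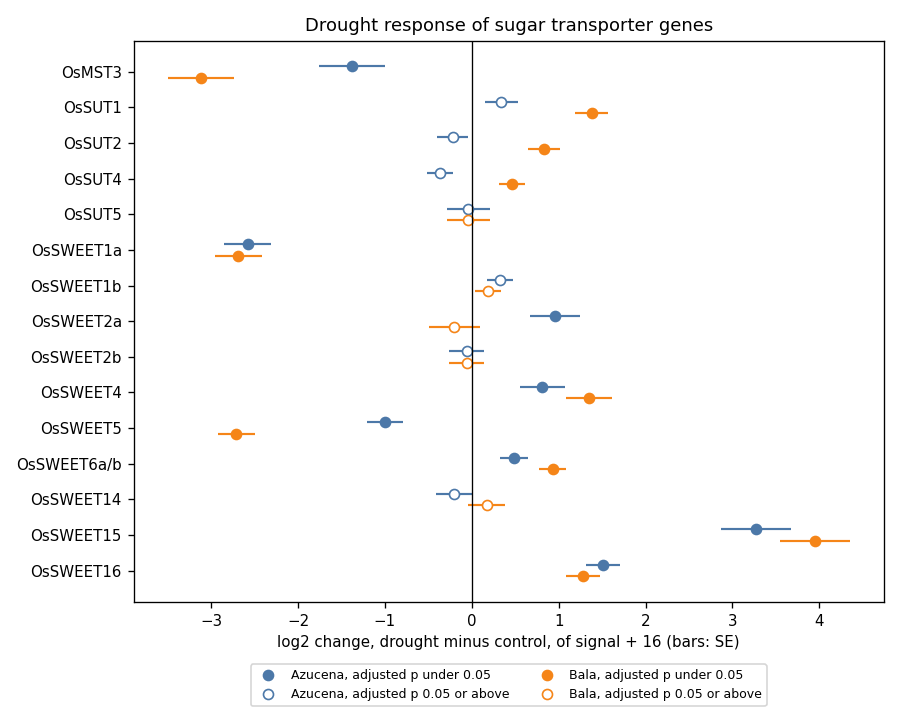
Log2 change of signal + 16, drought minus control, for the 15 tested sugar transporter genes in Azucena and Bala; points are estimates from limma, bars are SE, and filled points have an adjusted p under 0.05. OsSUT1, OsSUT2 and OsSUT4 are filled to the right of zero in Bala alone, while OsMST3, OsSWEET1a and OsSWEET5 are filled to the left of zero in both cultivars.

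OsSUT1 (LOC4331775) encodes the sucrose symporter of the plasma membrane that is best known from rice phloem and grain. Its signal in Bala was 94.1, 137.4 and 113.5 on the control arrays and 416.7, 288.4 and 277.0 on the drought arrays. In Azucena it was 198.8, 261.1 and 262.9 in control and 280.8, 342.6 and 300.9 in drought. The groups did not overlap in either cultivar, and the control arrays of Bala were the lowest of all. OsSUT1 rose in Bala by 1.38 (SE 0.19), or 2.60-fold, with an adjusted p of 2.1e-05 (limma). The Azucena change of 0.34 (SE 0.19) did not pass the test, at an adjusted p of 0.2 (limma). In drought the cultivar means were close, at 308.1 ± 31.5 in Azucena and 327.4 ± 77.6 in Bala (SD, n = 3 each).

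OsSUT2 (LOC9266530) encodes a sucrose symporter of the vacuole membrane. Its Bala signal was 192.3, 277.3 and 241.3 in control and 412.4, 471.6 and 404.0 in drought. In Azucena it was 676.3, 782.7 and 582.2 in control and 462.6, 689.6 and 606.9 in drought. Drought arrays stood above control arrays in Bala, while the Azucena groups overlapped. OsSUT2 rose by 0.83 (SE 0.18) in Bala, with an adjusted p of 0.0015 (limma), and its Azucena change was -0.22 (SE 0.18, adjusted p = 0.41). A second probe set for the gene lay near background and was not called.

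OsSUT4 (LOC4331221), a further proton-coupled sucrose symporter, also carries the synonym SUT2 in the gene table. Its signal in Bala was 222.7, 244.5 and 213.3 in control and 313.6, 345.7 and 296.9 in drought. The Azucena arrays read 290.1, 315.8 and 275.9 in control and 196.9, 267.4 and 211.5 in drought. The arrays separated in both cultivars, upward in Bala and downward in Azucena. OsSUT4 rose by 0.46 (SE 0.15) in Bala, with an adjusted p of 0.025 (limma), and its Azucena change of -0.37 (SE 0.15) missed the threshold at 0.078. The Bala call was lost under quantile normalization (0.28, adjusted p = 0.074) and median centring (0.28, adjusted p = 0.071), and in a fit of the Bala arrays alone (0.46, adjusted p = 0.051). It was also lost without Bala control 3 (0.42, adjusted p = 0.068), Bala drought 1 (0.47, adjusted p = 0.062) or Bala drought 2 (0.41, adjusted p = 0.11). In Azucena OsSUT4 was called lower under quantile normalization (-0.42, adjusted p = 0.011), under median centring (-0.41, adjusted p = 0.013) and without Azucena drought 2 (-0.49, adjusted p = 0.038). OsSUT5 (LOC4329756) was at or below background on all 12 arrays, with signals from 0.9 to 14.9.

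The interaction asked whether the drought response differed between the cultivars, taken as Bala minus Azucena. It was higher in Bala for 3 of 15 members, against 9.82% of genes, and lower for 2, against 5.13%. All 3 of the first kind were SUT genes. The difference was 1.04 (SE 0.26, adjusted p = 0.016, limma) for OsSUT1, 1.04 (SE 0.25, adjusted p = 0.011) for OsSUT2 and 0.83 (SE 0.21, adjusted p = 0.017) for OsSUT4. The OsSUT4 difference missed the threshold without Bala drought 2 (0.78, adjusted p = 0.055). OsMST3 and OsSWEET5, described below, were the members with a lower response in Bala. The median interaction was 0.0 for the members and 0.15 for all genes.

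Markers of the phloem and of vascular cells were read as well. Of 2 phloem markers, RPP17 (LOC4327497, also named ERG1) fell in both cultivars, at least 13.1-fold in Azucena and at least 16.6-fold in Bala. RPP16 (LOC4336487) rose in Bala from a mean of 3.53, at background, to 77.3, at least 5.07-fold with an adjusted p of 3.3e-07 (limma), and read 77.5 and 58.7 in Azucena. Summed phloem signals were 324.5 to 416.1 in Azucena control, 46.5 to 76.0 in Azucena drought, 298.5 to 434.8 in Bala control and 65.9 to 104.8 in Bala drought. These sums were mainly RPP17 in control, with means of 285.9 in Azucena and 365.3 in Bala, and mainly RPP16 in drought. Their fall was mainly that of RPP17, and they do not show the RPP16 rise in Bala. Markers of the secondary wall of vascular cells rose in Bala in 4 of 4 cases, where 27.4% of all genes rose, and in Azucena in 0 of 4, where 18.2% did. Their summed signals were 18.1 to 33.4 in Bala control and 168.1 to 377.4 in Bala drought, and 31.7 to 172.2 and 84.4 to 122.7 in Azucena. In Bala control 4 of 4 were at background. The part of these cells in the SUT result was not tested. In bulk leaf tissue, a change in the share of a cell type and a change in RNA per cell cannot be told apart.

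**Figure D2:**
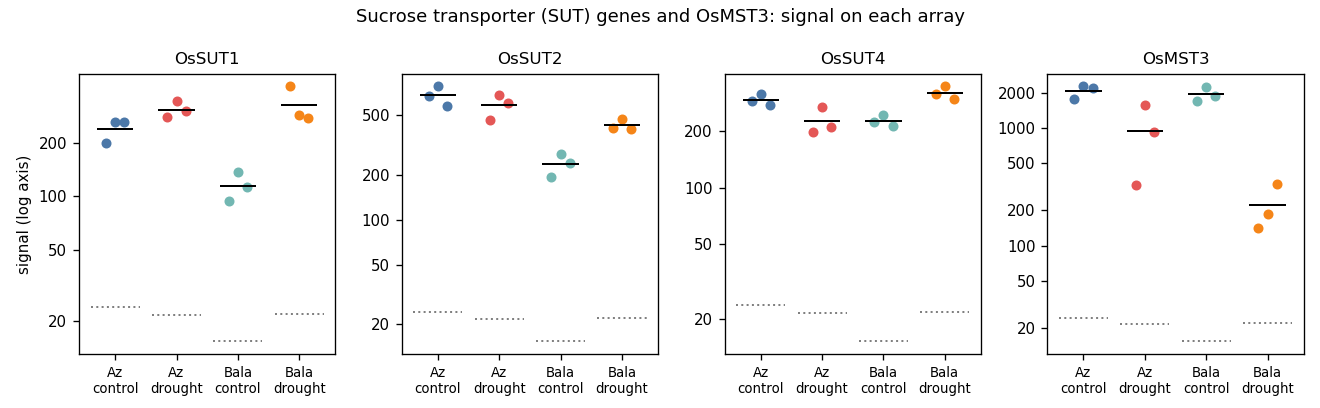
Signal (log axis) of OsSUT1, OsSUT2, OsSUT4 and OsMST3 on each array of Azucena (Az) and Bala in control and drought; dots are arrays, black lines are means of 3 arrays and grey dotted lines the mean background. OsSUT1 and OsSUT2 are lowest in Bala control, and OsMST3 spans 328.2 to 1565.3 in Azucena drought.

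OsMST3 (LOC4342198), a proton-coupled monosaccharide transporter, fell in both cultivars. Its signal in Azucena was 1775, 2265.6 and 2192.9 in control and 328.2, 1565.3 and 919.8 in drought. In Bala it was 1699.8, 2234.9 and 1880 in control and 141.1, 186.7 and 331.2 in drought. Control arrays of the cultivars overlapped, and all drought arrays were below all control arrays. OsMST3 fell by 1.38 (SE 0.38) in Azucena with an adjusted p of 0.012 (limma). In Bala it fell by 3.12 (SE 0.38), or 8.72-fold, with an adjusted p of 7.9e-06. Without Azucena drought 1, the Azucena change was -0.78 with an adjusted p of 0.051.

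The Bala fall was larger than the Azucena fall by 1.74 (SE 0.54), an interaction of -1.74 with an adjusted p of 0.046 (limma) that rests close to the threshold. It was called in 6 of 21 alternatives, over which it ranged from -2.35 to -1.25 with adjusted p-values from 0.00061 to 0.13. Leaving out any 1 array other than Azucena drought 1 or Bala drought 3 lost the call. The other MST gene, OsMST5 (LOC4344808), was below background on every array, at 0.2 to 6.9, and was not tested.

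Among the SWEET genes, OsSWEET15 (LOC4329464) rose under drought from below background in both cultivars. It is a member of the sucrose-transporting clade known for work in developing grain. Its control signals were 6.9, 2.5 and 3.3 in Azucena and 4.5, 3.3 and 10.9 in Bala, all below background. In drought they were 187.7, 185.4 and 162.1 in Azucena and 505.6, 598.3 and 107.3 in Bala. Every drought array lay far above every control array, and Bala drought 3 was the lowest drought array. OsSWEET15 rose at least 7.51-fold in Azucena with an adjusted p of 9.2e-06 and at least 21.1-fold in Bala with an adjusted p of 9.1e-07 (limma). These are lower bounds against background, which differs between the groups, so they cannot be compared. The interaction was 0.68 with an adjusted p of 0.5, and it was 1.42 with an adjusted p of 0.0033 without Bala drought 3.

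OsSWEET16 (LOC4332795) is named for the clade whose Arabidopsis members sit in the vacuole membrane. Its signal was 21.3, 19.4 and 16.7 in Azucena control and 73.3, 90.9 and 89.2 in Azucena drought. In Bala it was 1.3, 1.2 and 1.1 in control and 15.7, 41.5 and 23.7 in drought. The control groups were at background in both cultivars, and 2 of 3 Bala drought arrays were above it. OsSWEET16 rose at least 3.55-fold in Azucena (adjusted p = 2.2e-05, limma) and at least 1.65-fold in Bala (adjusted p = 0.00011). The Bala bound is set against the background of the control arrays, with a mean of 15.27. Background of the Bala drought arrays was higher, with a mean of 21.87, so that bound is not a firm minimum.

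OsSWEET4 (LOC4329093) is a hexose transporter that is known for its part in filling the rice grain. Azucena arrays read 807.3, 1568.5 and 1474 in control and 1372, 2560.6 and 2922.5 in drought. Bala arrays read 284.2, 313.2 and 298.8 in control and 918.1, 797.8 and 662.9 in drought. The Bala groups were well apart, whereas those of Azucena overlapped. OsSWEET4 rose by 1.35 (SE 0.26), or 2.55-fold, in Bala with an adjusted p of 0.0006, and by 0.81 (SE 0.26) in Azucena with an adjusted p of 0.025 (limma). The Azucena call was lost when Azucena control 1 was left out (0.51, adjusted p = 0.14), and likewise for Azucena drought 2 (0.69, adjusted p = 0.1) or Azucena drought 3 (0.60, adjusted p = 0.13). It was also lost with no filter on low values (adjusted p = 0.072) and in a fit of the Azucena arrays alone (adjusted p = 0.069). The interaction was 0.54 with an adjusted p of 0.39.

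OsSWEET6a/b is 1 gene in the table (LOC4324213), which carries both names. Its signal was 153.7, 130.6 and 111.2 in Azucena control and 177.2, 202.2 and 191.5 in Azucena drought. In Bala it was 113.6, 111.9 and 139.3 in control and 210.9, 248.6 and 282.7 in drought. Drought arrays exceeded control arrays in both cultivars. The gene rose by 0.93 (SE 0.16), or 1.91-fold, in Bala with an adjusted p of 0.00031, and by 0.49 (SE 0.16) in Azucena with an adjusted p of 0.035 (limma). The Azucena call was lost without Azucena control 2 (0.49, adjusted p = 0.08) or control 3 (0.39, adjusted p = 0.15). It was lost as well without Azucena drought 1 (0.54, adjusted p = 0.052), drought 2 (0.45, adjusted p = 0.11) or drought 3 (0.48, adjusted p = 0.084).

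OsSWEET1a (LOC4324848), from the clade of the Arabidopsis glucose transporter SWEET1, fell in both cultivars. Azucena arrays read 315.4, 459.2 and 368.3 in control and 36.7, 58.9 and 55.3 in drought. Bala arrays read 467.3, 307.2 and 718.6 in control and 61.1, 39.2 and 84.4 in drought. All drought arrays stayed above background and far below all control arrays. The fall was 2.58 on the log2 scale in Azucena, or 5.99-fold (adjusted p = 1.7e-06, limma). In Bala it was 6.45-fold (adjusted p = 8.4e-07). The interaction was -0.11 with an adjusted p of 0.9. A second probe set for OsSWEET1a lay at background on all 12 arrays.

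OsSWEET5 (LOC4339772), a galactose transporter of the hexose-preferring SWEET genes, had signal mainly in well-watered Bala. There it read 178.9, 177 and 114.7 in control and 7.8, 15.9 and 7 in drought. In Azucena it read 13.1, 20.8 and 29.7 in control and 1.8, 3.3 and 1.8 in drought, both at background in their mean. OsSWEET5 fell at least 7.07-fold in Bala with an adjusted p of 5.1e-08 (limma). The Azucena fall passed the test as well, at an adjusted p of 0.0019, but both groups were at background and no fold is given. The interaction was -1.71 (SE 0.3, adjusted p = 0.0014), and with 1 in place of 16 added to the signal it was -1.16 with an adjusted p of 0.24.

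**Figure D3:**
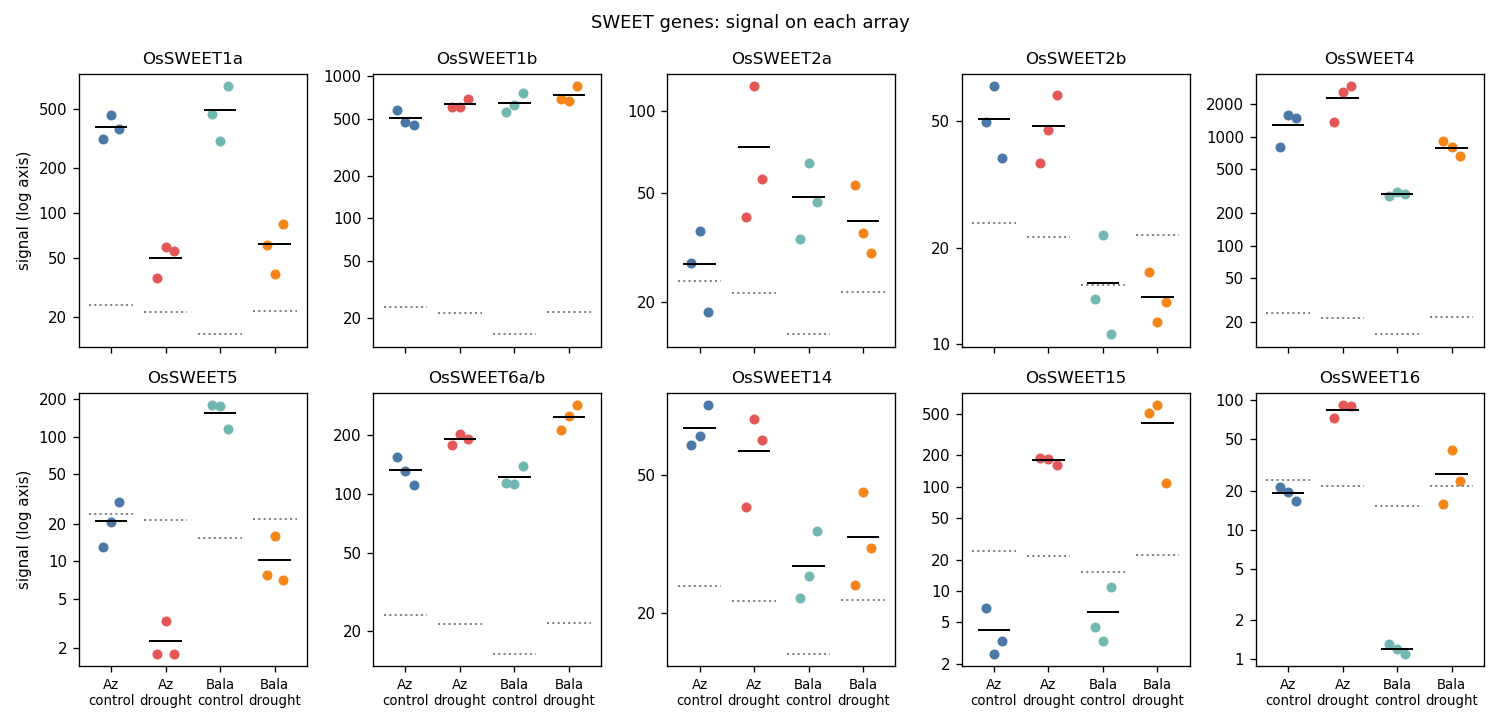
Signal (log axis, scaled for each gene) of the 10 tested SWEET genes on each array of Azucena (Az) and Bala in control and drought; dots are arrays, black lines are means of 3 arrays and grey dotted lines the mean background. OsSWEET15 is below background on every control array and above 100 on every drought array, and OsSWEET5 is above 100 on the Bala control arrays and no others.

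The remaining SWEET genes responded little or in 1 cultivar. OsSWEET2a (LOC4326868) read 27.8, 36.4 and 18.4 in Azucena control and 40.9, 123.5 and 56.5 in Azucena drought. In Bala it read 34.1, 64.4 and 46.6 in control and 53.5, 35.7 and 30.2 in drought. Azucena drought arrays were above the Azucena control arrays, while the Bala groups overlapped. Of the Azucena control arrays, only 1 was above background. OsSWEET2a rose by 0.96 (SE 0.29) in Azucena with an adjusted p of 0.019 (limma), which was lost with no filter on low values (adjusted p = 0.059). It was lost as well when Azucena control 3 was left out (0.80, adjusted p = 0.09), and likewise for Azucena drought 2 (0.58, adjusted p = 0.12). The interaction was -1.16 with an adjusted p of 0.077, and it was called under quantile normalization (-1.27, adjusted p = 0.037), under median centring (-1.30, adjusted p = 0.032) and without Azucena drought 1 (-1.43, adjusted p = 0.026).

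OsSWEET1b (LOC4338851), in the same clade as OsSWEET1a, was bright in every group, from 456.2 to 854. Its drought changes were 0.33 (SE 0.15, adjusted p = 0.12) in Azucena and 0.19 (SE 0.15, adjusted p = 0.39) in Bala (limma), and the first was called when arrays were centred on spike-in probe sets (0.41, adjusted p = 0.034). OsSWEET2b (LOC4326923), a glucose transporter whose crystal structure is known, had a drought difference of -0.06 in both cultivars, not called in either. OsSWEET14 (LOC4350572), a sucrose transporter that bacterial blight strains can switch on, had drought differences of -0.20 in Azucena and 0.17 in Bala, neither called. OsSWEET11 (LOC4346153), which exports sucrose towards the growing grain, read 0.4 to 14.1, and OsSWEET12 (LOC4332825) read 0.5 to 9.1. Both were below background on every array and were not tested.

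Between the cultivars in control, 6 of 15 members were lower in Bala, against 22.7% of genes, and 1 was higher, against 10.7%. In drought 5 were lower in Bala, against 13.7%, and 1 was higher, against 12%. The arrays of the cultivars did not overlap for 8 members in control, against 43.5% of genes, and for 6 in drought, against 43.9%. The members' median difference was -0.10 in control and -0.03 in drought, beside -0.11 and 0.03 over all genes. A difference in expression and a difference in how well the probes match each cultivar's sequence cannot be told apart here. Centring moved these splits: in control 3 were higher and 6 lower under quantile normalization and under median centring, and in drought 2 were higher and 4 lower under median centring and 0 and 6 under spike-in centring.

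OsSWEET4 was the member with the largest control difference among those above background in both cultivars. It was lower in Bala by 1.99 on the log2 scale in control, or 3.97-fold (adjusted p = 1.3e-05, limma), and 2.73-fold lower in drought (adjusted p = 0.0004). OsSWEET5 was higher in Bala control, at least 5.92-fold with an adjusted p of 4.2e-07, and in drought, with both cultivars at background, its difference was not called. OsSWEET2b read 49.5, 64.4 and 38.2 in Azucena control and 13.8, 21.9 and 10.7 in Bala control. In drought it read 36.9, 46.9 and 60.4 in Azucena and 16.8, 11.7 and 13.5 in Bala. The cultivars did not overlap, and OsSWEET2b was lower in Bala control (log2 difference -1.08, SE 0.20, adjusted p = 0.00056) and at least 2.17-fold lower in Bala drought (adjusted p = 0.00069). Its second probe set had the same direction and was called in both conditions.

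OsSWEET14 read 61, 64.6 and 79.2 in Azucena control and 22.1, 25.5 and 34.5 in Bala control. Its drought arrays read 40.5, 72.3 and 62.9 in Azucena and 24.1, 44.7 and 30.8 in Bala. The cultivars were apart in control and overlapped in drought. OsSWEET14 was 1.95-fold lower in Bala control (adjusted p = 0.0019, limma). The drought difference of -0.60 had an adjusted p of 0.048 and was called in 9 of 22 alternatives, with adjusted p-values from 0.015 to 0.2. It was lost without Azucena control 2 or 3, Bala control 1 or 2, Azucena drought 2 or 3, or Bala drought 1 or 3, with values from -0.60 to -0.46. A second OsSWEET14 probe set was lower in Bala in control (-0.90, adjusted p = 0.0064) and in drought (-0.70, adjusted p = 0.035). On that probe set the cultivars did not overlap in drought either, and Bala drought was at background. The probe sets used to represent OsSWEET2b and OsSWEET14 are of a type that may also bind related sequences.

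Both OsSUT1 and OsSUT2 were lower in Bala control, with log2 differences of -0.97 (adjusted p = 0.00063, limma) and -1.47 (adjusted p = 5.6e-06). In drought the differences were 0.06 (adjusted p = 0.86) and -0.42 (adjusted p = 0.1), and that of OsSUT2 was called under quantile normalization (-0.45, adjusted p = 0.015), spike-in centring (-0.51, adjusted p = 0.019) and without Azucena drought 1 (-0.58, adjusted p = 0.034). OsSUT4 was the member with higher signal in Bala drought, by 0.48 with an adjusted p of 0.027. That call was lost under spike-in centring (0.39, adjusted p = 0.071) and without Azucena drought 1 (0.40, adjusted p = 0.12), Azucena drought 3 (0.44, adjusted p = 0.096), Bala drought 1 (0.49, adjusted p = 0.065) or Bala drought 2 (0.42, adjusted p = 0.12). OsSWEET16 was 2.40-fold lower in Bala drought (adjusted p = 0.00014), and in control, where it was called lower as well, both cultivars were at background. OsMST3 was lower in Bala drought by 1.84 (adjusted p = 0.0017), with overlapping arrays, and the control difference was -0.10 (adjusted p = 0.89). OsSWEET15 differed in drought by 0.81 (adjusted p = 0.17), and by 1.54 (adjusted p = 2.6e-05) without Bala drought 3.

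**Figure D4:**
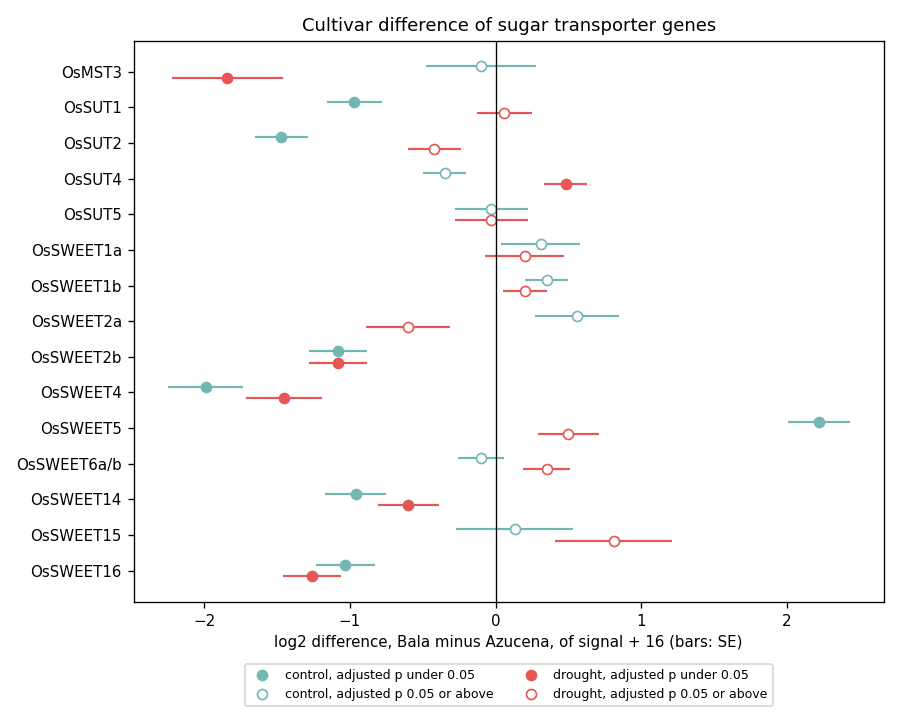
Log2 difference of signal + 16, Bala minus Azucena, for the 15 tested sugar transporter genes in control and in drought; points are estimates from limma, bars are SE, and filled points have an adjusted p under 0.05. Most filled points lie to the left of zero, and OsSWEET5 in control and OsSUT4 in drought are the filled points to its right.

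Azucena drought 1 had the lowest signal of its group in 13 of 14 members with signal on at least 1 array, against 48.3% of all genes. For OsSWEET5 it was tied with Azucena drought 3 at 1.8. Azucena drought 2 had the highest in 10 of 14, against 51.8%. Over all genes, Bala control 1 stood out most, being lowest of its group in 69.0% and highest in 8.3%. It was lowest in 7 of 14 members and highest in 2.

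The enzymes that make and use the transported sugars were taken from 8 lists with 51 genes on the array, 38 of them tested. In Azucena 9 of 38 rose, or 23.7% against 18.2% of all genes, and 12 fell, or 31.6% against 17.4%. Their median change was -0.18, beside 0.03 over all genes. In Bala 16 rose, or 42.1% against 27.4%, and 8 fell, or 21.1% against 14.1%, with a median change of 0.29 beside 0.18. The interaction was higher in Bala for 9, or 23.7% against 9.82% of all genes, and lower for 1, or 2.63% against 5.13%. A call in 1 cultivar alone does not show a cultivar difference, which is what the interaction tests. The same shares of all genes stand behind the counts of the single lists below, which hold 2 to 8 tested genes each. All these counts are a description of the genes tested, since some, such as amy2A, passed the filter on low values mainly through 1 condition.

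Genes of sucrose synthesis and cleavage came first. Of 4 tested sucrose synthases, which split sucrose reversibly, 2 rose and 1 fell in each cultivar. OsSUS4 rose from 275.7 ± 20.4 to 1486 ± 178.5 in Azucena and from 656.7 ± 183.9 to 1756 ± 360 in Bala (SD, n = 3 each), by 2.36 (adjusted p = 6.8e-08, limma) and 1.41 (adjusted p = 1.8e-05). OsSUS1 rose by 1.99 and 1.06, and OsSUS2 fell by 0.86 and 0.69. Of 5 invertases, which cleave sucrose irreversibly, 2 rose and 1 fell in Azucena and 1 rose and 1 fell in Bala. The neutral invertase NIN1 rose by 1.02 and 1.61. The cell wall invertase CIN1 fell by 1.16 in Azucena (adjusted p = 2.5e-05), and its Bala change of -0.15 was not called, an interaction of 1.01 (adjusted p = 0.0063). CIN7 rose by 0.71 in Azucena, and CIN4 fell by 0.54 in Bala. Their interactions were -0.30 (adjusted p = 0.57, limma) and -0.32 (adjusted p = 0.42), neither called. Of 4 sucrose phosphate synthases and phosphatases, which make sucrose in the cytosol, 1 rose in Azucena and 3 rose in Bala. OsSPS4F rose by 1.14 and 1.07, and OsSPP2 and OsSPP1 rose by 0.72 and 0.58 in Bala.

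Among 8 hexokinases and fructokinases, which phosphorylate hexoses, 3 fell in Azucena, and 2 rose and 2 fell in Bala. LOC4338010, named HXK6, fell by 0.88 in Azucena and 1.67 in Bala. LOC4342654, named HXK4, fell at least 2.86-fold in Azucena and at least 1.14-fold in Bala. FRK1 fell by 1.20 in Azucena. LOC4339420 and LOC4326776, which share the names HXK2 and HXK4 with other loci, rose by 0.94 and 0.86 in Bala. Both tested carriers of the plastid envelope fell in Bala, by 0.50 for the triose phosphate translocator TPT and 0.63 for the maltose exporter MEX1, and TPT fell by 0.78 in Azucena.

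In starch synthesis 2 of 6 tested genes rose in each cultivar, while 3 fell in Azucena and 1 in Bala. The starch synthase SSI (LOC9269493) rose by 1.83 in Azucena and 3.36 in Bala, an interaction of 1.53 (adjusted p = 0.00085, limma). The branching enzyme Sbe1 rose by 1.08 and 1.11. GBSS-I, which makes amylose, fell at least 2.80-fold in Azucena and by 1.34 in Bala. Sbe1 has 8 probe sets and GBSS-I has 6, and those used here are of a type that may also bind related sequences. Their other probe sets were not compared. SSII-2 fell by 1.23 in Azucena and had a difference of 0.00 in Bala, not called, an interaction of 1.23 (adjusted p = 0.0013). In starch breakdown 8 genes had a probe set and 4 were tested, the others being at background in every group. Of the 4 tested, 2 rose and 1 fell in Azucena, where 18.2% and 17.4% of all genes did. In Bala 4 of 4 rose, where 27.4% did. The amylase gene amy2A rose at least 2.17-fold in Azucena and at least 1.99-fold in Bala, and the plastid enzyme DPE1 rose by 1.11 and 2.04. Both control groups were at background for amy2A, which passed the filter on low values mainly through its drought arrays. DPE2, which acts on maltose in the cytosol, fell by 0.79 in Azucena and rose by 0.90 in Bala, an interaction of 1.69 (adjusted p = 0.0003). The glucan dikinase GWD3 rose by 0.52 in Bala.

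Trehalose phosphate phosphatases remove the phosphate from a sugar signal that tracks sucrose. Of 5 tested, 2 fell in Azucena, and 2 rose and 1 fell in Bala. OsTPP1 read 110.5 in Azucena control and 17.4 in Azucena drought as group means, a fall of at least 4.70-fold (adjusted p = 5.3e-06, limma). In Bala, OsTPP1 was at background in control and in drought, and its change of 0.24 was not called (adjusted p = 0.47). The OsTPP1 interaction was called (2.15, adjusted p = 0.0003). With no Bala level above background, the sizes of the OsTPP1 responses cannot be compared between the cultivars. OsTPP7 fell by 1.39 in Azucena. In Bala, OsTPP2 (LOC4349333) rose at least 2.56-fold, OsTPP9 rose by 0.79 and OsTPP10 fell at least 1.14-fold. The Azucena change of OsTPP9 was 0.57, not called (adjusted p = 0.083), and its interaction was 0.22 (adjusted p = 0.74, limma).

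**Figure D5:**
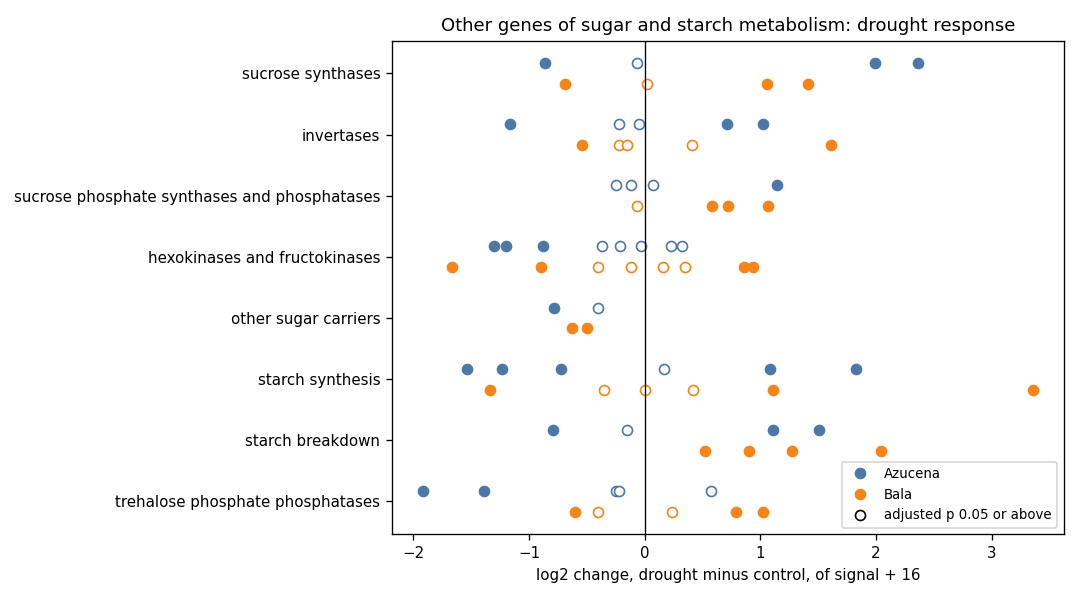
Log2 change of signal + 16, drought minus control, of the tested genes in 8 lists of sugar and starch metabolism; each point is 1 gene in Azucena or Bala, and open points have an adjusted p of 0.05 or above. All 4 tested starch breakdown genes are filled to the right of zero in Bala, while in Azucena 2 are filled to the right and 1 to the left. Among them, amy2A was at background in both control groups.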

How the data were processed

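The authors deposited signal intensities on a linear scale, 1 per probe set and array, made with MAS5 per the submitters' processing notes. The scaling target is not given in the sources used here, and no detection calls were used. Groups came from the cultivar and stress labels. The constant 16 was added to each deposited signal before taking log2, and nothing else was rescaled. The test covered 33476 of 57381 probe sets, those that exceeded the median of their array on 3 or more of 12 arrays, and omitted 123 control probe sets. In limma 3.58.1 (R 4.3.3), a group-means model of all 12 arrays was fitted by lmFit, variances were moderated by eBayes using a trend on the mean, and 5 contrasts were taken. The fit was also run on simulated data with independent noise and no shifts of whole arrays, so that check does not cover such shifts. The added constant makes fold changes of dim genes too small.

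The platform's annotation listed a single gene for 22436 probe sets, several for 95 and nothing for 34850. Symbols and synonyms came from a RefSeq gene table of the species. A gene with several probe sets, as 4 members had, was represented by that with the highest mean log2 value. Background was the brightest of 33 negative controls on an array. A group whose arrays were all at or below it, or whose mean did not exceed the mean background, was taken to be at background. A lower bound divides the bright group by the background of the dim group's arrays, or by the dim group's signal where that was higher. Mean background was 15.27 in Bala control and 21.87 in Bala drought, so bounds for rises in Bala would be smaller against the latter. All members were named, with up to 4 called genes per list and drought response, those with the largest change. Members and lists were chosen with earlier results of these data known. After values had been seen, 10 genes were dropped from the lists because their name also belongs to another protein. The motif search planned for promoters was not run. Tables and plots were made with data.table (version 1.17.8), pandas 2.3.3, numpy 2.4.6 and matplotlib 3.10.9 under Python 3.11.15. Alternatives were other normalizations, added constants and filters, no trend, the replicate number as a block, only the groups compared, all probe sets of members, and leaving out each array. Arrays were compared for duplicates, and 0 pairs shared most of their values.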

Additional observations from a re-analysis of the deposited data

Results flagged for a closer look

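For 5 members the drought response differed between Azucena and Bala by the interaction test (limma, Benjamini-Hochberg adjustment). OsSUT1 (1.04, adjusted p = 0.016), OsSUT2 (1.04, adjusted p = 0.011) and OsSUT4 (0.83, adjusted p = 0.017) had a higher response in Bala, with all 3 drought arrays above all 3 control arrays there for each gene. OsMST3 (-1.74, adjusted p = 0.046) and OsSWEET5 (-1.71, adjusted p = 0.0014) had a lower one. The first of these was called in 6 of 21 alternatives, and the second depends on the constant added to the signal, since OsSWEET5 was at background in both Azucena groups.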

How the results depend on the processing

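No member changed direction past the threshold under any alternative run. With no filter on low values 3 members were called higher in Azucena, in place of 5. The interaction was lower in Bala for 2 members, for 1 under spike-in centring, log2(signal + 64), no filter or no trend, for 0 with log2(signal + 1), and for 3 under quantile normalization and median centring, where OsSWEET2a was added. Between cultivars in control, 3 members in place of 1 were higher in Bala under quantile normalization and under median centring, and in drought 2 under median centring, 0 under spike-in centring and 2 with log2(signal + 1). Leaving out 1 array at a time gave 2 to 5 members higher and 2 to 4 lower in Azucena, 6 to 7 higher and 3 lower in Bala, 2 to 4 higher and 1 to 3 lower in the interaction, 1 to 2 higher and 6 lower in control, and 0 to 2 higher and 4 to 7 lower in drought. The probe sets called then ranged from 7321 to 9713 in Azucena, 7998 to 10602 in Bala, 2600 to 3900 in the interaction, 7738 to 9587 in control and 5853 to 8026 in drought. In the Bala response the median of all probe sets was 0.133, with 65.4% of calls higher. Quantile normalization gave 0.019 and 50.6%, median centring -0.046 and 46.0%, and spike-in centring 0.181 and 70.7%. Deviations of same-numbered arrays correlated at -0.11 to 0.218, and those of differently numbered arrays at -0.196 to 0.108. The highest values lay between Azucena drought and Bala drought, at 0.167 for replicate 1 and 0.218 for replicate 3, where replicate 2 gave 0.003. Whether the drought arrays are paired by number is thus not settled, and the main fit used no pairing. With the replicate number as a block, 4 members were lower in Azucena in place of 3 (OsSUT4 added, adjusted p = 0.046, limma) and 6 lower in Bala in drought in place of 5 (OsSUT2 added, adjusted p = 0.045), and the block changed no other call of a member. Fits of only the groups compared were not run for the interaction. Low signal limits OsSUT5, OsSWEET11, OsSWEET12 and OsMST5, which have no level above background.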

Other observations

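Of 5 root markers, 4 were at background under drought in either cultivar, against 2 in the Azucena controls and 3 in those of Bala, and Lsi2 and OsSHR1 were at background in every group. The silicon channel gene Lsi1 rose by 0.77 in Azucena (adjusted p = 0.019, limma), from a mean of 172.6 to 303.6, and its Bala change of 0.32 was not called (adjusted p = 0.33). NAS3 (LOC4344361), a nicotianamine synthase of metal transport, fell at least 11.4-fold in Azucena (adjusted p = 2.1e-06), from 273.5 to 21.2. In Bala NAS3 was called lower as well (log2 change -0.92, adjusted p = 0.034), from a mean of 28.9 to 5.27. The Bala arrays overlapped, at 3.7 to 46.1 in control and 3.2 to 7.3 in drought. The NAS3 interaction was 2.05 (adjusted p = 0.0064), but both drought groups were at background, so the sizes of the falls cannot be compared. The anther marker OsC4 (LOC9270168) rose at least 1.74-fold in Azucena (adjusted p = 0.00091) and at least 3.17-fold in Bala (adjusted p = 4.4e-05).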
